A study of Mus musculus with 3 samples.

Results

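Cells of Epi cysts that contained RNA of Brachyury (T) were examined within a library of single cells. A cell was counted as T-positive if at least 1 of its unique molecular identifiers (UMIs, which mark captured mRNA molecules) came from T. These cells were therefore chosen by their T count, and the values of T itself are a description. The rule gave 210 of the 655 Epi cyst cells that were kept (32.1%, exact 95% Clopper-Pearson interval 28.5 to 35.8%), and the other 445 cells, in which no T UMI was counted, served for comparison. A cell was kept if it held at least 4000 genes, at most 10% mitochondrial UMIs and more UMIs of Pou5f1, Sox2, Nanog and Fgf4 together than of Gata6, Sox17, Dab2 and Cubn together. The whole series held 2692 cells that passed the first pair of these conditions.

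T-positive and T-negative cells came from the same pool of cysts and share all of their treatment, and cells could not be assigned to single cysts. Epi cysts were made from iGATA mouse embryonic stem cells of the E14tg2a background, which carry an inducible GATA4 transgene that was left uninduced here. The cells were embedded in matrigel, kept in 2i + LIF medium for 1 day and in N2B27 medium for another 3 days, and all cysts were dissociated together into 1 library. The other 2 libraries were BELAs (bilayered aggregates of an embryonic core and an extraembryonic endoderm shell) and VE cysts, both made from clone C6 after GATA4 induction with doxycycline (0.5 µg/ml, 8 h). For BELAs, N2B27 without doxycycline followed, with 3 days of growth after seeding. For VE cysts, doxycycline was given for another 16 h together with FGF4 (10 ng/ml) plus heparin (1 µg/ml), and both factors stayed in the N2B27 during the 3 days of growth. The labels give no clone for Epi cysts, and the study's methods name C6 for all data except a few panels made with another clone. There was thus 1 library per type of structure with no replicates. Cells of 1 library are not replicates, so no test was possible, no p-value is given, and all intervals are 95% intervals of counting error only.

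T encodes a T-box transcription factor that marks the primitive streak, the region of the mammalian embryo where epiblast cells leave the epithelium to form mesoderm and endoderm. In the mouse, Wnt3, Nodal and its co-receptor Cripto (Tdgf1) act upstream of the streak, Eomes and Fgf8 are expressed in it, and Mesp1, Tbx6 and Msgn1 mark the mesoderm that leaves it. Later, T is kept on in caudal epiblast and axial progenitors together with Nkx1-2, Cdx and Hox genes. Otx2 marks the anterior epiblast and is cleared from the posterior side as the streak forms.

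T lies on chromosome 17 (8434423 to 8442496, plus strand, mm10), Fgf8 on chromosome 19 (45736798 to 45742915, minus strand), Eomes on chromosome 9 (118478212 to 118486132, plus strand) and Tdgf1 on the same chromosome (110939603 to 110946158, minus strand). The promoters of T, Sp5 and Tdgf1 are shown because T chose the cells, Sp5 and Tdgf1 are among the genes described below, and Sp5 is a known target of Wnt signalling, which acts through TCF/LEF factors, while T is itself a T-box factor. These windows were picked with their letters known. Each is a RefSeq sequence of GRCm38.p6 from 250 bases before to 50 bases after the gene's start, written 5′ to 3′ on the gene's strand. Capitals mark CTTTG, the core letters of TCF/LEF sites, and AGGTGT, letters of a T-box half-site, on either strand (CAAAG and ACACCT). The 2 motifs do not overlap in these windows.
T, chr17:8434173-8434472, plus strand: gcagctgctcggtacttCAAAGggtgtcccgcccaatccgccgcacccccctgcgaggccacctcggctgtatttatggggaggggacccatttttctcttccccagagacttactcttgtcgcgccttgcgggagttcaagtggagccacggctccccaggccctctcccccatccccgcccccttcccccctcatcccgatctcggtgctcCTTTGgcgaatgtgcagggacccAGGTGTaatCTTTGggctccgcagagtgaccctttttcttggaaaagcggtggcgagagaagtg
Sp5, chr2:70474673-70474972, plus strand: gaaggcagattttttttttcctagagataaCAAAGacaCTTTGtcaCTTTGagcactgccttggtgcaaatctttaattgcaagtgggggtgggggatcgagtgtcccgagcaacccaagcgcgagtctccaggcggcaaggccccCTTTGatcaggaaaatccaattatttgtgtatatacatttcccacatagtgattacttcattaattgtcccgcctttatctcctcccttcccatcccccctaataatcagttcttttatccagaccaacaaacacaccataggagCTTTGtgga
Tdgf1, chr9:110946109-110946408, minus strand: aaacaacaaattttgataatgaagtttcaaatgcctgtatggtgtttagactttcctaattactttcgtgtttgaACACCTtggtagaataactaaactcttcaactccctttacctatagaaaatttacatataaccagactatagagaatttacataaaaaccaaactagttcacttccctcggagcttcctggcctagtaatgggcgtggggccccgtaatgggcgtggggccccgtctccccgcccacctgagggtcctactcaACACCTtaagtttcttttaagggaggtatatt
The T window held CTTTG 3 times and AGGTGT 1 time, the Sp5 window held CTTTG 5 times, and the Tdgf1 window held AGGTGT 2 times. Such letters are common: of 27025 promoters of the same length, 54.0% held CTTTG and 13.9% held AGGTGT on either strand. Of the 8 genes with a listed promoter among the 15 highest ratios, 3 held CTTTG and 1, Tdgf1, held AGGTGT, and of the 8 among the 15 lowest ratios 1 held CTTTG and 0 held AGGTGT. Among further windows read, that of Nodal held CTTTG 1 time and AGGTGT 1 time, on either strand, and those of Nkx1-2, Nanog and Axin2 held neither. A match is a description of letters and does not show that a factor binds.

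T-positive cells held between 1 and 30 T UMIs, with a median of 2. T UMIs were unevenly spread: 94 cells held 1, 62 cells held 2 to 4, and the 54 cells with 5 or more held 542 of all 802 T UMIs (67.6%). The pooled T level in T-positive cells was 59.0 CPM (CPM, a gene's UMIs divided by all UMIs of the pooled cells and put on the usual per-megacount scale; 55.0 to 63.2 CPM), and over all 655 cells it was 19.6 CPM. T-positive cells were slightly deeper than T-negative cells, with median depths of 63131 and 58794 UMIs and medians of 7100 and 6943 genes, at median mitochondrial shares of 3.13% and 3.22%. Across quartiles of depth, 27.4%, 28.8%, 36.0% and 36.0% of cells were T-positive, whereas the pooled T level (20.8, 12.9, 25.0 and 19.3 CPM) did not follow depth.

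**Figure D1:**
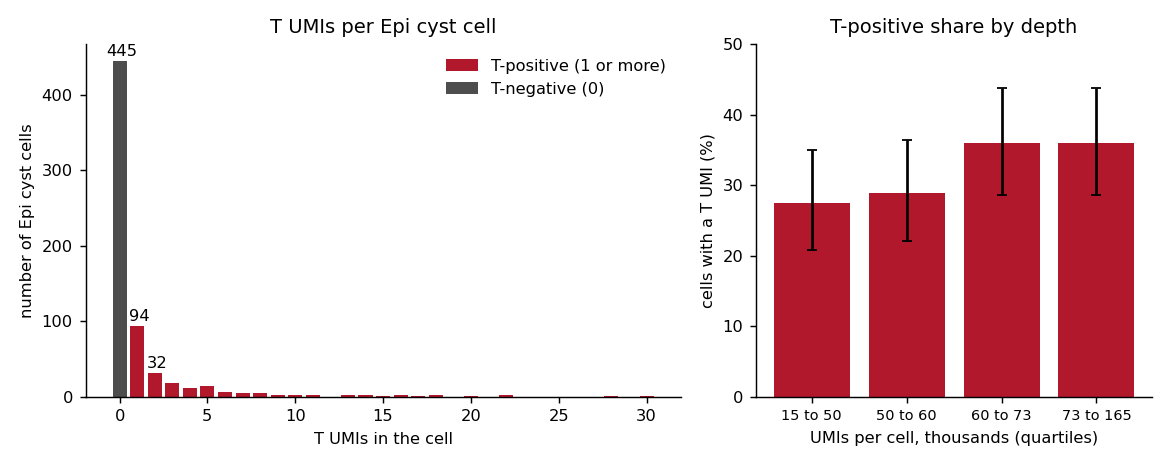
Left, number of kept Epi cyst cells (y axis) by the number of T UMIs in the cell (x axis), with T-positive cells in red and T-negative cells in grey: 94 cells held exactly 1 T UMI and the highest count was 30. Right, percentage of cells with a T UMI (y axis) in quartiles of UMIs per cell (x axis), with exact 95% Clopper-Pearson intervals, which overlap between all quartiles.

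To lessen the influence of depth, every cell was also thinned at random to 40000 UMIs. This left out 14 of the 210 T-positive and 50 of the 445 T-negative cells. Thinned cells kept the class given by their full T count, except where T was read again, so depth still had a part in that class. A T UMI was still present in 164 of the 196 thinned T-positive cells, which is 27.7% of the 591 thinned cells (24.2 to 31.5%). For comparison, a T UMI was found in 2 of 542 extraembryonic cells of BELAs, a cell type that should lack T (0.369%, median depth 90251 UMIs), and in 0 of 514 of them after thinning, which allows a share of up to 0.715%. Extraembryonic cells of VE cysts had none in 577 cells (up to 0.637%). These cells came from libraries with little T RNA, so their share does not give the free T RNA of the Epi cyst library. In that library, the 419 barcodes that the filters left out (median 3979 UMIs) held T at 18.4 CPM (13.4 to 24.6 CPM) with a T UMI in 28 of them (6.68%). How far free RNA contributed to the cells with 1 T UMI was not tested. No barcode of a T-positive cell was shared with another library, and Scrublet called 8 of the 210 T-positive and 8 of the 445 T-negative cells doublets.

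T-positive cells differed from T-negative cells in few genes. Among 9319 genes with at least 5 CPM in either group, 10 were at least 2-fold higher in T-positive cells (0.107% of the genes) and 3 at least 2-fold lower (0.0322%), where the ratio is taken after adding 5 CPM to both levels. The log2 ratios of 98.9% of the genes lay within 0.5 of 0, and their median was -0.01. The genes with higher levels included Fgf8, Tdgf1, Eomes, Cda, Pmepa1, Wnt3, Nrcam, Ppp4r4 and Nefl, and the 3 with lower levels were Btbd17, Crabp1 and Gadd45g.

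Fgf8, a growth factor gene of the streak, differed most. T-positive cells held 0 to 39 Fgf8 UMIs (median 2) and T-negative cells 0 to 20 (median 0), so the cells of both groups overlapped. Its pooled level was 94.5 CPM (89.4 to 99.9) in T-positive cells and 14.8 CPM (13.4 to 16.3) in T-negative cells, 6.39-fold higher (5.70 to 7.16). After thinning, an Fgf8 UMI was seen in 65.3% of T-positive and 24.8% of T-negative cells. Extraembryonic cells of BELAs, which express Fgf8 themselves, had one in 17.1%.

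Eomes, a T-box factor of the streak, stood at 23.7 CPM (21.2 to 26.5) in T-positive cells and 5.69 CPM (4.83 to 6.67) in T-negative cells, 4.17-fold higher (3.43 to 5.08). The highest cells held 25 and 15 Eomes UMIs, and the median was 0 in both groups. An Eomes UMI was present in 40.8% of thinned T-positive cells (33.9 to 48.0%) and 11.9% of thinned T-negative cells (8.88 to 15.5%). Most T-positive cells were thus without a detected Eomes UMI.

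Wnt3, a Wnt ligand required for streak formation in the mouse, was at 12.9 CPM in T-positive and 3.49 CPM in T-negative cells (log2 ratio 1.08, 0.88 to 1.28). The other Wnt ligand with a high level, Wnt8a, differed less, with 54.3 and 39.2 CPM (log2 ratio 0.42, 0.30 to 0.55). Wnt3a had no UMI in either group. Of 11 genes for Wnt ligands and their secretion, 5 were tested, and of these only Wnt3 was called (0.107% of all tested genes were). The β-catenin target Sp5 stood at 10.8 CPM in T-positive and 3.42 CPM in T-negative cells (log2 ratio 0.91), Axin2 at 24.3 and 16.6 CPM (0.43) and Tcf7 at 33.6 and 24.1 CPM (0.41). None of the 8 tested β-catenin targets passed the 2-fold mark (0.107% of all genes did). Their log2 ratios were all above 0, with a median of 0.24, and the median over the 13 listed was 0.10.

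In the Nodal pathway, Tdgf1 stood apart most among the genes named here. It had 0 to 31 UMIs in T-positive cells (median 1) and 0 to 29 in T-negative cells (median 0). Its pooled level was 52.05 CPM (48.3 to 56.0) in T-positive and 13.5 CPM (12.1 to 14.9) in T-negative cells, 3.86-fold higher (3.40 to 4.39). The secreted inhibitor Lefty1 was at 59.4 and 28.7 CPM (log2 ratio 0.94), Lefty2 at 8.97 and 4.41 CPM (0.57) and the ligand Nodal at 42.1 and 24.2 CPM (0.69), all under the 2-fold mark. Other members lay closer to 0: the receptor gene Acvr2b at -0.08, Smad2 at 0.06 and Gdf3 at 0.13 on the log2 scale, and the protease gene Furin was lower (-0.35). Of 14 listed genes, 10 were tested and 2 were called higher, Tdgf1 among them, where 0.107% of all tested genes were. The median over the 14 was 0.07. Over the 10 tested genes it was 0.35, with 7 above and 3 below 0, against -0.01 over all tested genes.

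Pmepa1, whose product dampens TGFβ signalling, was at 15.7 CPM (13.7 to 18.0) in T-positive and 4.30 CPM (3.56 to 5.15) in T-negative cells. It lost its call when T was read again after thinning (log2 ratio 0.98). The inhibitory Smad7 was at 21.8 and 9.85 CPM (log2 ratio 0.85). Fst encodes follistatin, which binds activin. It had 0.995 on the log2 scale, just under the mark, at 226 CPM (218 to 234) in T-positive and 111 CPM (107 to 115) in T-negative cells. The BMP-responsive Id1 and Id2, inhibitors of basic helix-loop-helix factors, were lower in T-positive cells, at 7.87 against 17.8 CPM and 22.9 against 45.2 CPM. Id3 was at 71.5 and 95.3 CPM (log2 ratio -0.39). None of the 6 tested genes of the BMP list, which holds Smad7 and the Id genes, was called. Of all tested genes, 0.107% were called higher and 0.0322% lower.

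**Figure D2:**
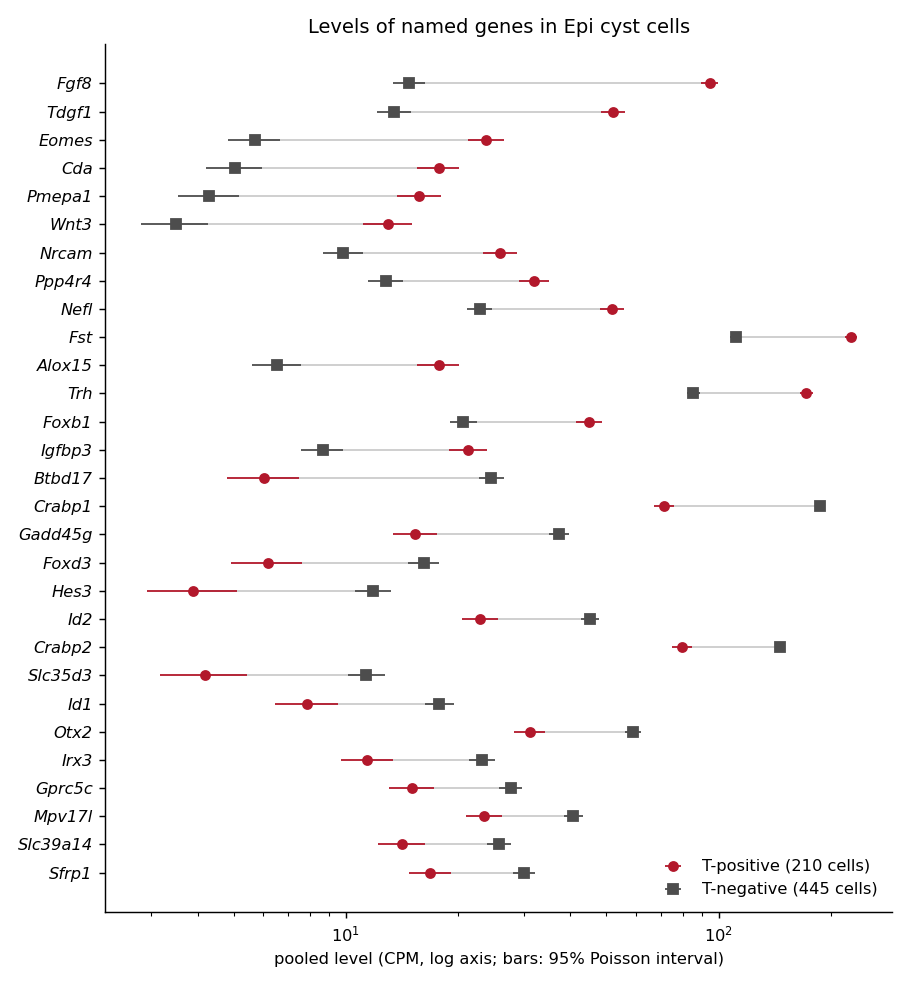
Pooled levels (x axis, CPM on a log axis) of named genes among the highest and lowest ratios (y axis, from Fgf8 at the top to Sfrp1 at the bottom) in 210 T-positive cells (red circles) and 445 T-negative cells (grey squares), with exact 95% Poisson intervals. The gap is widest for Fgf8, at 94.5 CPM in T-positive and 14.8 CPM in T-negative cells, and among the lower genes for Btbd17, at 6.03 and 24.5 CPM.

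The remaining higher genes have no common role. Cda encodes cytidine deaminase, Nrcam a neuronal cell adhesion molecule, Nefl the light neurofilament chain and Ppp4r4 a regulatory subunit of a protein phosphatase. Cda was at 17.7 CPM in T-positive and 5.03 CPM in T-negative cells, Nrcam at 26.0 and 9.85 CPM, Ppp4r4 at 32.0 and 12.8 CPM and Nefl at 51.8 and 22.9 CPM. The next genes in rank, which did not pass the mark, were the lipoxygenase gene Alox15 (17.7 and 6.54 CPM), the hormone gene Trh (172 and 85.6 CPM), the forkhead gene Foxb1 (44.9 and 20.6 CPM) and Igfbp3 (21.2 and 8.67 CPM), which encodes a binding protein of insulin-like growth factors. After thinning, Nefl, Nrcam and Ppp4r4 lay just under the mark, with log2 ratios of 1.00, 0.99 and 0.98.

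On the lower side, Btbd17 was at 6.03 CPM (4.79 to 7.48) in T-positive cells and 24.5 CPM (22.7 to 26.5) in T-negative cells, a log2 ratio of -1.42. Crabp1, which encodes a cytoplasmic binding protein of retinoic acid, was at 71.5 CPM (67.0 to 76.1) and 187 CPM (182 to 193). Its UMIs were concentrated in few cells: after thinning, 9 of 196 T-positive cells with at least 10 Crabp1 UMIs held 73.7% of that group's Crabp1 UMIs, and 45 of 395 T-negative cells held 88.7%. Its share of cells with a UMI differed less, 45.4% in T-positive and 56.2% in T-negative cells. Gadd45g, a gene of growth arrest and DNA damage responses, was at 15.4 and 37.3 CPM. Its log2 ratio was -1.06 and, after thinning, -0.97.

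Further lower genes, under the mark, were transcription factors of the epiblast and neural plate. Otx2 was at 31.2 CPM (28.3 to 34.3) in T-positive and 58.8 CPM (56.0 to 61.8) in T-negative cells, Foxd3 at 6.18 and 16.2 CPM, Irx3 at 11.4 and 23.2 CPM and Hes3 at 3.90 and 11.8 CPM. Crabp2, a close relative of Crabp1, was at 79.7 and 146 CPM, and Stra6, the receptor for retinol carried by its binding protein, at 4.12 and 9.08 CPM. The Wnt antagonist gene Sfrp1 was at 16.8 and 30.0 CPM. The 4 other genes of the lowest 15 were Slc35d3, Gprc5c, Mpv17l and the zinc transporter gene Slc39a14, with log2 ratios between -0.69 and -0.83.

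The genes that chose the cells as embryonic also differed, and are given as a description. Nanog was at 57.7 CPM (53.7 to 61.9) in T-positive and 20.8 CPM (19.1 to 22.5) in T-negative cells, with medians of 3 and 1 UMIs per cell. Sox2 ran the other way, at 52.05 and 88.4 CPM, and Fgf4 was at 4.48 and 8.71 CPM. Pou5f1 was detected in every cell of both groups, at 673 and 566 CPM. The endoderm genes of the rule were near 0: Gata6 at 0.37 and 0.22 CPM, Sox17 at 0.147 and 0.147 CPM, Dab2 at 2.72 and 2.05 CPM, and Cubn without a UMI in T-positive cells, where 3 counts would be 0.221 CPM, and at 0.294 CPM in T-negative cells.

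Among genes of the streak and nascent mesoderm, only some passed the 2-fold mark. Of 26 listed genes, 9 were tested and Fgf8, Eomes and Wnt3 were called higher, where 0.107% of all tested genes were. The median over the 26, most of them too low to be tested, was 0.06. Over the 9 tested genes it was 0.57, with all 9 above 0, against -0.01 over all tested genes. Some of the 9, such as Wnt3, were tested only through their level in T-positive cells. Mixl1, a homeobox gene of the streak, was at 1.47 CPM (20 UMIs) in T-positive and 0.404 CPM (11 UMIs) in T-negative cells, and a UMI was seen in 5.10% (2.47 to 9.18%) and 1.77% of thinned cells, against 2.14% of extraembryonic BELA cells. The organizer gene Gsc was at 1.84 and 0.367 CPM and Apln, a peptide ligand gene, at 16.2 and 7.68 CPM. Genes of mesoderm that has left the streak were barely counted: Mesp1 stood at 0.147 and 0.147 CPM and Tbx6 at 0.221 and 0.0735 CPM. Msgn1 had no UMI in either group. Outside those genes, Evx1 also had no UMI in either group. T-positive cells are therefore named here by T and not by a cell type, since, of the streak markers that did not choose them, Fgf8 and Eomes were higher in them and Mixl1 was low in both groups.

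Epithelial genes are given by their values, since so few genes were called anywhere (0.107% higher and 0.0322% lower) that a list without a call says little. None of 11 epithelial genes and none of the 5 tested genes of epithelial-mesenchymal transition was called, with list medians of -0.03 and -0.05. Cdh1 (E-cadherin) was at 105 and 107 CPM and Epcam at 338 and 340 CPM in T-positive and T-negative cells. The log2 ratio of Cdh1 was -0.03 (-0.12 to 0.06). The EMT regulator Snai1 was at 3.82 and 3.64 CPM, Vim at 56.4 and 62.5 CPM and Cdh2 (N-cadherin) at 8.31 and 11.8 CPM. The tight junction genes Cldn6 and Cldn7 were lower in T-positive cells, at 42.4 against 54.8 CPM and 75.4 against 94.6 CPM.

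Caudal and Hox genes differed to unlike degrees between T-positive and T-negative cells. Of 18 listed caudal genes, 12 were tested and only Fgf8 was called higher, where 0.107% of all tested genes were. The median log2 ratio was 0.14 over the 18 and 0.40 over the 12 tested, with 11 above 0 and Hes3 below (-0.92). Nkx1-2, a homeobox gene of the caudal epiblast, was at 61.6 CPM in T-positive and 29.9 CPM in T-negative cells (log2 ratio 0.93, 0.81 to 1.06), and 75% and 50.1% of thinned cells held a UMI of it. Cdx1 was at 6.98 and 2.20 CPM, Cdx2 at 5.88 and 4.63 CPM and Gbx2 at 63.6 and 47.4 CPM. Hoxb2 was at 32.9 and 32.1 CPM and Hoxb1 at 30.3 and 23.6 CPM. On the log2 scale Hoxb1 (0.31) differed more than Cdx2 (0.18). None of the 4 tested Hox genes was called, where 0.107% of all tested genes were called higher and 0.0322% lower. Of the 39 listed, 33 were under 1 CPM in T-positive cells and 21 had no UMI there. Hox UMIs were distributed differently over cells. After thinning, 25 of 196 T-positive cells held no Hox UMI (12.8%, 8.43 to 18.3%), against 133 of 395 T-negative cells (33.7%, 29.0 to 38.6%), while the upper quartiles were 9 and 10 UMIs and the highest cells held 30 and 32. The median was 4 in T-positive and 2 in T-negative cells.

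**Figure D3:**
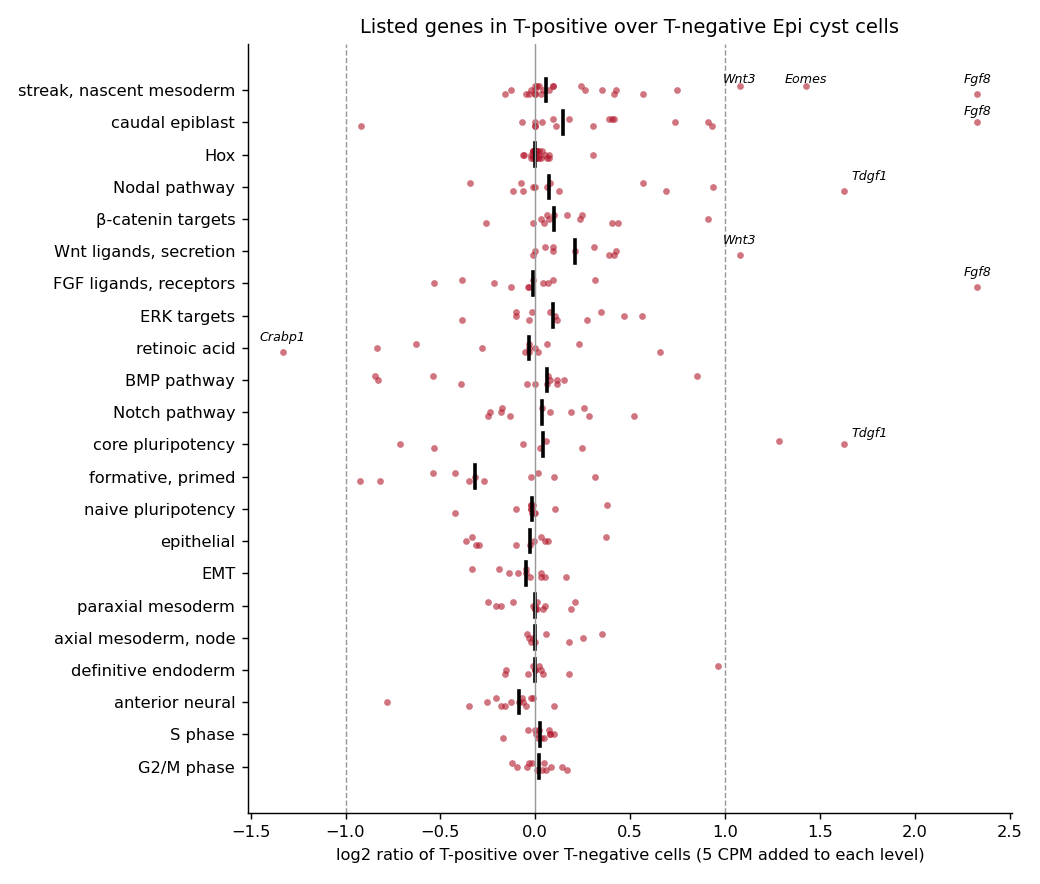
Log2 ratio of T-positive over T-negative cells, 5 CPM added to each level (x axis), for genes of 22 lists (y axis). Each point is a gene and dashed lines mark 2-fold. Black bars are list medians without T and the 8 lineage markers of the cell rule, and they count a few members that are not drawn. Nanog, which the cell rule used, is drawn without a name. Called genes are named: Fgf8, Eomes and Wnt3 of the streak list, Tdgf1 of the Nodal list and Crabp1 of the retinoic acid list lie outside the lines, and the list medians lie between -0.32 and 0.21.

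Of 11 genes of formative pluripotency, 10 were tested and none was called (0.107% of all tested genes were called higher and 0.0322% lower). The median log2 ratio of the 11 was -0.32, with 7 of the 10 tested below 0 and 3 above. Utf1 was at 235 and 317 CPM, Dnmt3b at 513 and 640 CPM, Pou3f1 at 141 and 207 CPM and Fgf5 at 41.7 and 32.5 CPM in T-positive and T-negative cells. Of 13 genes of retinoic acid handling and response, 8 were tested and only Crabp1 was called (0.0322% of all tested genes were called lower). Dhrs3, a retinaldehyde reductase gene, was higher at 7.35 and 2.83 CPM. Of 12 targets of ERK signalling, which FGFs activate, none was called, where 0.107% of all tested genes were called higher and 0.0322% lower. Dusp6 was at 34.8 and 23.8 CPM, Il17rd at 41.9 and 26.7 CPM and Dusp4, which ran the other way, at 18.7 and 26.0 CPM. Of 11 genes for FGF ligands and receptors, 5 were tested and only Fgf8 was called, and of 4 further core pluripotency genes only Tdgf1. Both were called higher, as were 0.107% of all tested genes. In the Notch list Hes1 was highest, with 50.4 and 33.7 CPM (log2 ratio 0.52). None of the 5 tested genes of that list was called, against 0.107% and 0.0322% of all tested genes.

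Few markers of other cell types reached the level for a comparison. None of the tested genes of the lists for paraxial mesoderm (2 tested), blood and endothelium (1), definitive endoderm (3), germ cells (4), trophoblast (1), visceral endoderm (2), parietal endoderm (4), fibroblasts (1) and anterior neural tissue (7) was called, against 0.107% and 0.0322% of all tested genes, and the lists of lateral and axial mesoderm had no tested gene. Summed levels were 23.8 and 25.0 CPM for paraxial mesoderm, 5.88 and 8.01 CPM for lateral and extraembryonic mesoderm, 11.8 and 10.9 CPM for blood and endothelium, 10.7 and 9.22 CPM for trophoblast, and 8.38 and 9.96 CPM for fibroblasts in T-positive and T-negative cells. Genes of the axial mesoderm and node summed to 7.72 and 4.37 CPM, with Noto at 0 in both and Shh at 0 and 0.110 CPM. The definitive endoderm list summed to 219 and 138 CPM, of which Trh made up 172 and 85.6 CPM, while Sox17 and Cer1 were at most 0.147 CPM. Genes of S phase summed to 1982 and 1929 CPM, those of G2 and M phase to 2431 and 2388 CPM, and genes induced by dissociation to 2214 and 2210 CPM. No gene was called in the lists of Wnt inhibitors (3 tested), naive pluripotency (4), p53 response (10) and unfolded protein response (10). The same held for glycolysis (15), matrix adhesion (13) and ephrins with their receptors (9), against 0.107% and 0.0322% of all tested genes. The list of the 2-cell-like state had no tested gene.

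Levels were next followed across the number of T UMIs in a cell: 0, 1, 2 to 4, and 5 or more. The genes named here were chosen for their ratio over all T-positive cells, of which these classes are parts, so their order over the classes is a description. Median depth also ran up, with 58794, 59260, 64226 and 67983 UMIs, but levels after thinning kept the order for Fgf8, at 16.9, 37.6, 107 and 184 CPM.

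As deposited, Fgf8 ran through 14.8, 38.1, 95.1 and 180 CPM, Nanog through 20.8, 42.6, 61.4 and 76.6 CPM, and Tdgf1 through 13.5, 36.5, 56.8 and 70.3 CPM. The intervals of neighbouring classes did not overlap for Fgf8. After thinning, an Fgf8 UMI was found in 24.8%, 49.4%, 63.8% and 92.5% of cells. Eomes was at 5.69, 14.4, 34.3 and 25.8 CPM, where the intervals of the last pair (29.0 to 40.4 and 20.9 to 31.5 CPM) overlapped, and an Eomes UMI was found in 11.9%, 31.8%, 44.8% and 50.9% of thinned cells. Nodal was at 24.2, 42.0, 43.7 and 40.5 CPM.

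Some genes, picked after their values were seen, were close to T-negative cells in the class with 1 T UMI. Sp5 was at 3.42, 4.26, 10.7 and 20.9 CPM, Apln at 7.68, 8.33, 14.2 and 30.7 CPM, Fgf5 at 32.5, 33.0, 37.8 and 59.5 CPM and the ERK phosphatase gene Dusp6 at 23.8, 26.2, 31.1 and 52.4 CPM. In cells with 1 T UMI the log2 ratios of these genes over T-negative cells were 0.14, 0.07, 0.02 and 0.12, with intervals that included 0. Cdx1 was at 2.20, 4.43, 6.77 and 11.1 CPM. Cdh1 stayed between 94.4 and 112 CPM in the 4 classes.

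**Figure D4:**
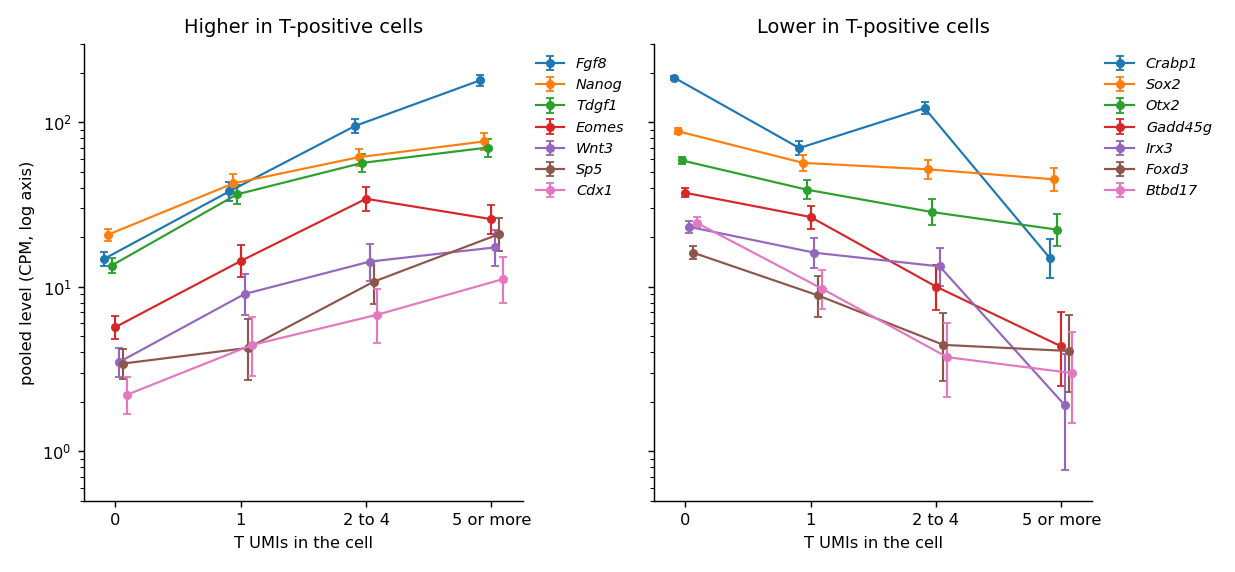
Pooled levels (y axis, CPM on a log axis, exact 95% Poisson intervals) in Epi cyst cells with 0, 1, 2 to 4, and 5 or more T UMIs (x axis; 445, 94, 62 and 54 cells). On the left, Fgf8 runs from 14.8 to 180 CPM and the Eomes intervals of the last pair of classes overlap. On the right, Gadd45g runs from 37.3 to 4.35 CPM, and Crabp1 does not move stepwise.

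Among the lower genes, Gadd45g was at 37.3, 26.6, 10.0 and 4.35 CPM, Irx3 at 23.2, 16.1, 13.3 and 1.90 CPM, Btbd17 at 24.5, 9.75, 3.74 and 2.99 CPM and Otx2 at 58.8, 39.0, 28.5 and 22.3 CPM. Sox2 was at 88.4, 56.7, 51.9 and 45.1 CPM. The glucose transporter gene Slc2a1 was at 331, 262, 190 and 175 CPM. Crabp1 was at 187, 69.9, 122 and 14.9 CPM, so that cells with 2 to 4 T UMIs were above those with 1.

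In cells with 5 or more T UMIs, 38 of 9431 tested genes were at least 2-fold higher than in T-negative cells (0.403%) and 23 were at least 2-fold lower (0.244%). Beside the 10 genes called in all T-positive cells, they included Alox15 (36.9 CPM in cells with 5 or more T UMIs and 6.54 CPM in T-negative cells), Igfbp3 (39.1 and 8.67 CPM), Mab21l2 (13.6 and 0.588 CPM), Sp5, Apln, Fst (301 and 111 CPM), Nkx1-2 (85.8 and 29.9 CPM), Lefty1 (76.0 and 28.7 CPM), Cdx1 and Smad7. The lower genes included Crabp2 (46.4 and 146 CPM), Otx2, Irx3, Foxd3, Sfrp1 and the frizzled receptor gene Fzd7 (7.88 and 24.3 CPM). The imprinted noncoding RNA gene Meg3 had no UMI in the 54 cells, where 3 counts would be 0.815 CPM, and was at 18.7 CPM in T-negative cells.

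The T-positive cells were not uniform. As only 80 of the 196 thinned T-positive cells held an Eomes UMI, they were split by it, and T-negative cells were split in the same way (47 of 395 held one). This split was chosen after the values had been seen, and Eomes itself is fixed by it. T-positive cells with an Eomes UMI had less Crabp1 and fewer Hox UMIs than those without, and more Tdgf1, Nodal, Lefty1, Otx2 and Fgf5. Other genes of the Nodal list were mixed. Lefty2 was also higher with an Eomes UMI, at 12.5 and 6.90 CPM (log2 ratio 0.56), and Furin had a log2 ratio of 0.30. Gdf3 (-0.34), Acvr2b (-0.05) and Smad2 (-0.01) were not higher. T itself was similar, at 67.2 CPM (58.5 to 76.8) with and 56.5 CPM (49.8 to 63.7) without an Eomes UMI.

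Crabp1 was at 17.5 CPM in T-positive cells with and 93.5 CPM in those without an Eomes UMI, and at 27.7 and 211 CPM in T-negative cells with and without one. A few cells carried this gap: a Crabp1 UMI was found in 34 of 80 T-positive cells with and 55 of 116 without an Eomes UMI. All Hox genes together were at 98.4 and 206 CPM in the T-positive cells with and without an Eomes UMI, and at 81.9 and 156 CPM in the T-negative cells with and without one. Hoxb2 was at 14.1, 47.4, 16.5 and 36.1 CPM in the same order of groups. The ephrin receptor gene Epha4, at 19.1, 91.6, 30.9 and 74.4 CPM, showed the same order of high and low groups.

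Tdgf1 stood at 73.8 CPM in T-positive cells with an Eomes UMI, 35.3 CPM in T-positive cells without, 59.0 CPM in T-negative cells with and 7.40 CPM in T-negative cells without one. Nodal, at 58.1, 29.7, 65.4 and 17.9 CPM, and Lefty1, at 92.5, 50.6, 99.5 and 21.6 CPM, differed little between T-positive and T-negative cells that held an Eomes UMI (log2 ratios of -0.16 and -0.10) and more between those that held none (0.60 and 1.07). Fgf8 was higher in T-positive cells in both strata, at 126 against 34.0 CPM with and 78.2 against 14.6 CPM without an Eomes UMI. Otx2 was lower in both, at 38.4 against 76.6 CPM and 21.8 against 55.9 CPM. Nkx1-2 followed T and not Eomes, at 56.9 and 66.8 CPM in T-positive cells with and without an Eomes UMI and at 29.3 and 28.3 CPM in T-negative cells with and without one.

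**Figure D5:**
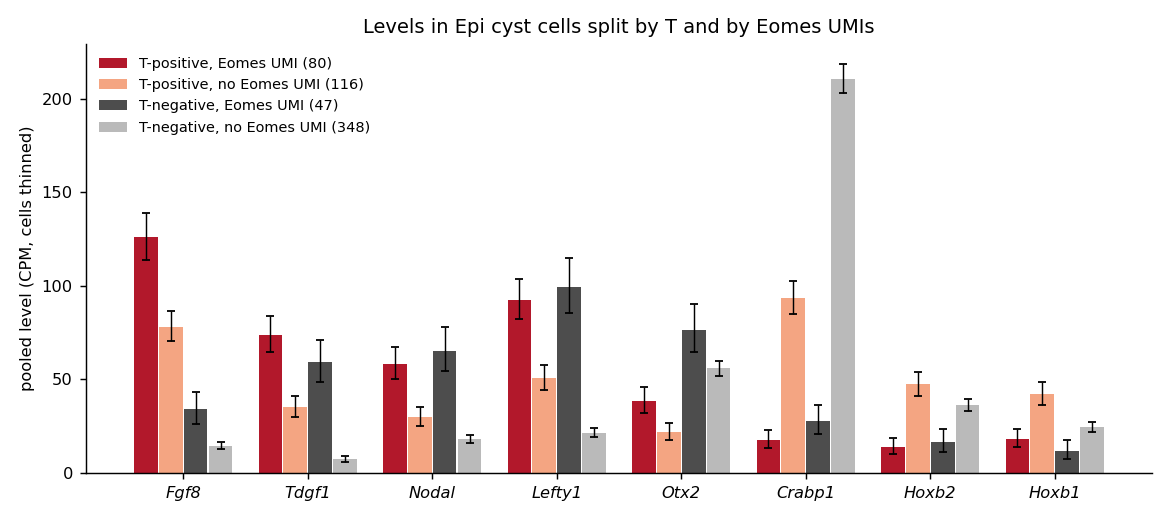
Pooled levels (y axis, CPM after thinning, exact 95% Poisson intervals) of 8 genes (x axis) in T-positive cells with and without an Eomes UMI (dark and light red) and T-negative cells with and without one (dark and light grey). Crabp1, Hoxb2 and Hoxb1 are lower in both groups with an Eomes UMI, and Fgf8 is higher in both T-positive groups.

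A split by Fgf8, also chosen after the values had been seen, gave another picture. Of the thinned cells, 128 of 196 T-positive and 98 of 395 T-negative cells held an Fgf8 UMI. T-positive cells with one had more T (78.1 CPM, against 28.3 CPM without), Lefty1 (91.4 and 23.2 CPM) and Igfbp3 (31.1 and 5.15 CPM), and less Otx2 (20.9 and 43.0 CPM). In T-negative cells, those with an Fgf8 UMI had high levels of Crabp1 (477 CPM, against 93.7 CPM without) and Hoxb2 (79.8 and 18.5 CPM), while T-positive cells with an Fgf8 UMI had Crabp1 at 84.8 CPM and Hoxb2 at 42.4 CPM. Fgf8 RNA was hence not restricted to T-positive cells, and Crabp1 here again rests on few cells: T-positive cells held a Crabp1 UMI in 61 of 128 with and 28 of 68 without an Fgf8 UMI. Hox genes together were at 174 CPM in T-positive and 283 CPM in T-negative cells with an Fgf8 UMI.

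Finally, T-positive Epi cyst cells were compared with embryonic cells of BELAs, chosen by the same marker rule. These grew in a different structure after doxycycline induction and in another library, so that culture, induction and library cannot be told apart. T was found in 24 of 868 embryonic BELA cells (2.76%, median depth 75016 UMIs in these cells), with at most 2 UMIs, and in 6 of 44 embryonic VE cyst cells with 1 UMI each. Against the 844 T-negative embryonic BELA cells, 137 of 9614 tested genes were at least 2-fold higher in T-positive Epi cyst cells (1.43%) and 144 at least 2-fold lower (1.5%).

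Caudal and Hox genes were far apart, and T-negative Epi cyst cells were also far above the BELA cells in those named here. Hoxb1 was at 30.3 CPM in T-positive Epi cyst cells and 0.0286 CPM in T-negative embryonic BELA cells, and 23.6 CPM in T-negative Epi cyst cells. Nkx1-2 was at 61.6 and 0.372 CPM (29.9 CPM in T-negative Epi cyst cells), Wnt8a at 54.3 and 0.258 CPM (39.2 CPM) and Fst at 226 and 8.60 CPM (111 CPM). All 4 tested Hox genes and 10 of 11 tested caudal genes were called higher, where 1.43% of all genes were. For genes that separated T-positive from T-negative Epi cyst cells, the order was mixed. Fgf8 was 29.5-fold higher (25.6 to 34.1) than in T-negative embryonic BELA cells (3.21 CPM) and Eomes 6.88-fold higher (5.81 to 8.17), whereas Tdgf1 was at 52.05 CPM against 103 CPM in those BELA cells, a log2 ratio of -0.92. Otx2 was at 31.2 and 107 CPM, Utf1 at 235 and 618 CPM and Fgf5 at 41.7 and 90.1 CPM.

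The 24 T-positive embryonic cells of BELAs held T at 11.1 CPM (7.15 to 16.3), against 59.0 CPM in those of Epi cysts. Within BELAs, Fgf8 was at 7.96 CPM (4.72 to 12.6) in T-positive and 3.21 CPM in T-negative embryonic cells, and Trh at 220 CPM (201 to 240) and 89.7 CPM. Some endoderm genes were also higher in these 24 cells, with Gata6 at 8.84 and 1.42 CPM, Sox17 at 6.63 and 1.5 CPM and Foxa2 at 3.54 and 0.888 CPM. In the 24 cells these levels rest on 20, 15 and 8 UMIs. Dab2 (19.9 and 14.2 CPM) and Cubn (9.72 and 5.41 CPM) differed less. Extraembryonic BELA cells, which express such endoderm genes, held Fgf8 at 22.3 CPM. Their part in the Fgf8 level was not tested. Eomes was at 2.65 CPM (0.973 to 5.77) and 3.45 CPM, a difference not detectable at this depth, and Tdgf1 ran the other way than in Epi cysts, at 71.2 CPM (60.6 to 83.0) and 103 CPM. Hoxb1 had no UMI in these 24 cells, where 3 counts would be 1.33 CPM.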

How the data were processed

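Transcriptomes came from 10x 3′ v3.1 libraries, 1 per structure (Epi cysts, BELAs, VE cysts). The authors aligned reads to mm10 and counted UMIs with Cell Ranger 4.0.0. The deposited matrices are unnormalized UMI counts over 32285 genes. Barcodes with 4000 genes or more and no more than 10% of UMIs from mitochondrial genes were kept. T-positive and T-negative Epi cyst cells held 13602431 and 27217444 UMIs in total, so that 1 count corresponds to 0.0735 and 0.0367 CPM. UMIs were pooled per group, and levels carry exact 95% Poisson intervals. Genes with at least 5 CPM in either group were tested against a fixed fold of 2 with 5 CPM added, leaving out T and the 8 lineage markers, and p-values were not computed. The text names genes of 38 lists and the 15 highest and 15 lowest ratios among genes of at least 10 CPM. Members and lists were chosen with earlier results of these data known. A few genes outside this rule (Mab21l2, Fzd7, Meg3) were chosen after their values were seen. The procedure was tested on simulated data. Alternatives changed depth, weighting, filters, the added CPM, scaling, the T threshold and doublets (scanpy 1.11.5). Python 3.11.15, numpy 2.4.6 and scipy 1.17.1 were used. Counts on overlapping or near-identical genes were not separated further. The set of promoter sequences used here held 16 of the 30 named genes. Results for a few genes are not reported here.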

Additional observations from a re-analysis of the deposited data

Results flagged for a closer look

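T RNA was also present in barcodes that the comparisons leave out. The 419 Epi cyst barcodes with fewer than 4000 genes or more than 10% mitochondrial UMIs held T at 18.4 CPM (13.4 to 24.6 CPM), close to the 19.6 CPM of all kept Epi cyst cells, while the 577 extraembryonic VE cyst cells held none. These barcodes had a median of 3979 UMIs, and what they are was not tested.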

How the results depend on the processing

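All 30 genes of the highest and lowest ratios kept their sign under the 13 alternatives. Ratios near 0 did not all keep it. Gdf3 was at 0.13 in the main setting and -0.24 at its lowest, and Vim at -0.14 and, at its highest, 0.02. The counts of genes past 2-fold depended on the CPM added and on the T threshold. With 1 CPM added 26 genes were higher and 8 lower, and with 20 CPM added 2 (Fgf8 and Tdgf1) and 1 (Crabp1). With at least 2 T UMIs 25 were higher and 9 lower, and with at least 5 T UMIs 38 and 23. The T-positive share was 27.7% with T read again after thinning. Cells with 2 or more T UMIs made up 20.7% and those with 5 or more 10.8%. These last shares are over such cells plus T-negative cells, without the T-positive cells under the threshold. The 10 higher and 3 lower genes of the main setting were all called at both T thresholds. Thinning gave 12 higher and 3 lower genes, losing Nefl, Nrcam, Ppp4r4 and Gadd45g and adding Fst, Lefty1, Nkx1-2, Sp5, Trh and Foxd3, all close to the mark. With T read again after thinning, Nrcam and Pmepa1 lost their call. The median of the streak list lay between 0.02 and 0.14. Depth limits genes near or under 1 CPM, such as Mixl1 and Mesp1. No paired analysis was possible because each structure has 1 library.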
